A study of Homo sapiens with 34 samples.

Results

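The genes described here encode guanylate cyclase C, its peptide ligands and proteins that respond to the cGMP it makes, break it down or export it. They are the 9 genes GUCA2A, GUCA2B, GUCY2C, PRKG2, CFTR, SLC9A3, SLC26A3, PDE5A and ABCC4, of 19974 protein-coding genes in the RefSeq table of GRCh38. Their members in the data are the peak regions that lie within one of these genes or 50 kb of it. There were 129 such H3K27ac loci of 83451 in all and 43 RNA polymerase II (Pol II) loci of 59924. A locus is a stretch of overlapping regions from the induced and the uninduced list of one antibody.

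Guanylin and uroguanylin are small peptides that intestinal epithelial cells secrete into the gut lumen, where they bind guanylate cyclase C on the apical membrane and raise cGMP inside the cell. That cGMP activates a membrane-bound protein kinase, which opens the chloride channel CFTR and restrains sodium uptake, so that salt and water enter the lumen. Bacterial heat-stable enterotoxins act on the same receptor, and loss of its ligands is a known feature of colorectal tumours.

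All 4 lists came from DLD1 (DNTCF), a colorectal adenocarcinoma cell line engineered with a Tet-inducible dominant negative TCF7L2 transgene. TCF7L2 is the factor through which β-catenin switches on the targets of Wnt signalling, and its dominant negative form prevents this. Induced cells were given 1 µg/mL doxycycline for 24 h. Uninduced cells carried the same transgene and were given no doxycycline, so an effect of the drug itself cannot be told apart from that of the transgene. The title of the study asks about loss of the GUCY2C ligands and a locus control region that responds to β-catenin and TCF. Chromatin was immunoprecipitated with antibodies to H3K27ac, a histone modification found at promoters and enhancers in use, and to Pol II. For both antibodies, 2 samples of a condition share a single deposited peak list, so nothing below has a replicate check, a spread or a p-value.

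Markers of intestinal epithelium were marked in these cells: 11 of 12 had an H3K27ac region in the gene or 1 kb of it in induced cells and 12 of 12 in uninduced cells. The same count was 3 of 5 for leukocyte markers and 4 of 6 for markers of fibroblasts and endothelium in both lists, and 1 of 6 in induced cells and 2 of 6 in uninduced cells for markers of liver, muscle and neurons. Among the defining genes with no region in either list were LYZ, COL1A2, COL3A1, ALB, APOA2, MYH7 and ACTA1. Depth is known only from the labels, as 40 to 55M reads per sample. Fold enrichment (signal over the local background) and −log10 q are the authors' own values for a region and depend on depth and input.

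The start sites differ in sequence, and 4 are shown because their marks differ. Each line gives the 250 bases before the start site, 5′ to 3′ on the gene's own strand, from RefSeq (GRCh38.p14). They are the start of GUCA2A (chr1:42164746-42164995, minus strand), which has both marks, that of GUCA2B (chr1:42153160-42153409, plus strand), which has neither, that of CFTR (chr7:117479775-117480024, plus strand), which has both, and that of SLC26A3 (chr7:107803224-107803473, minus strand), where the nearest H3K27ac locus lies inside the gene. Capitals mark matches to the motifs searched, each on both strands: CTTTGAT and CTTTGTT for TCF factors, TTTATG for CDX2 and AGATAA for GATA factors, the last chosen after the sequences had been seen.
GUCA2A: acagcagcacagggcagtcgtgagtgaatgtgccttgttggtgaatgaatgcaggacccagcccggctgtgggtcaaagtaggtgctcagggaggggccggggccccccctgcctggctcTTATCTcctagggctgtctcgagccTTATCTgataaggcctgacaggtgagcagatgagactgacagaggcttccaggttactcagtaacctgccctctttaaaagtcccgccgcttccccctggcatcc
GUCA2B: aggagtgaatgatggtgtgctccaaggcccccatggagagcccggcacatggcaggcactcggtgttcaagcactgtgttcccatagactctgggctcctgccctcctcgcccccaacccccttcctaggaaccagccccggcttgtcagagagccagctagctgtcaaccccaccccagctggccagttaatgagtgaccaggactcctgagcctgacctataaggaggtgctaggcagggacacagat
CFTR: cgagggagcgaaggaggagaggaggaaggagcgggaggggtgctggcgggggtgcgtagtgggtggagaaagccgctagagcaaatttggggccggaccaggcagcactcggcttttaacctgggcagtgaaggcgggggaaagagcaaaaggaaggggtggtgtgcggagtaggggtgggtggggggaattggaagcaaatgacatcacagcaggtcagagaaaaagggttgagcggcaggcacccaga
SLC26A3: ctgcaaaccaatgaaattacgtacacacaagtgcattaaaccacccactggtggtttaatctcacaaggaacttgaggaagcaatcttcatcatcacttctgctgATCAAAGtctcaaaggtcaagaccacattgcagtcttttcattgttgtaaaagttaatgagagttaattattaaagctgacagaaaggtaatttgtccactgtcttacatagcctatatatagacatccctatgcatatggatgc
The GUCA2A window held AGATAA on the opposite strand at 130 and at 105 bases before the start site, as TTATCT in the line above. A match to that motif was present in 7.08% of 22132 promoter windows of the same length. The SLC26A3 window held CTTTGAT on the opposite strand, from 145 to 139 bases before the start site, as ATCAAAG, against 1.78% of all windows. None of the other windows of the 8 members in the RefSeq table held a match, and neither CTTTGTT (3.71% of all windows) nor TTTATG (7.37%) was found in any of them. GC content ran from 37.6% at SLC26A3 to 82.0% at SLC9A3, with 58.8% at GUCA2A and 60.4% at GUCA2B.

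Around the 9 genes, H3K27ac loci were listed in both conditions about as often as over the whole lists. Of the 129 H3K27ac loci, 96 (74.4%, Wilson 95% interval 66.3 to 81.2, counting error only) were listed in both conditions, against a background of 74.6% over all loci. A further 23 were listed in induced cells alone and 10 in uninduced cells alone. Over all 83451 loci these were 9862 (11.8%) for induced cells alone and 11336 (13.6%) for uninduced cells alone, the reverse order. The reason for this was not tested. All 33 loci of a single condition near the 9 genes were modest, with a −log10 q of at most 17.7. Of the 43 Pol II loci, 27 (62.8%, 47.9 to 75.6) were listed in both, close to the background of 61.9%. With a −log10 q of at least 5 the share was 53.1% (17 of 32), against 71.1% of all Pol II loci at that setting. In induced cells alone 7 were listed and in uninduced cells alone 9, beside backgrounds of 9.1% for induced cells alone and 29.1% for uninduced cells alone.

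Folds at the shared loci were compared with the trend of the whole lists. Over all shared loci the median ratio of the induced to the uninduced fold was 1.04 for H3K27ac and 0.924 for Pol II. A locus is called higher or lower in induced cells below when its ratio lay more than 1.5 times above or below that median. By this measure 12 of the 96 shared H3K27ac loci were higher and 10 lower, against 9.07% and 11.5% of all shared loci. For Pol II 4 of 27 were higher and 1 was lower, against 7.4% and 8.25%. The H3K27ac shares lie near the background and the Pol II counts are too small to read against it. CFTR held 6 of the 12 higher H3K27ac loci and 45 of the 96 shared ones. For Pol II it held 2 of the 4 higher loci and 8 of the 27 shared ones. The scatter of folds shows each shared locus by gene.

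**Figure D1:**
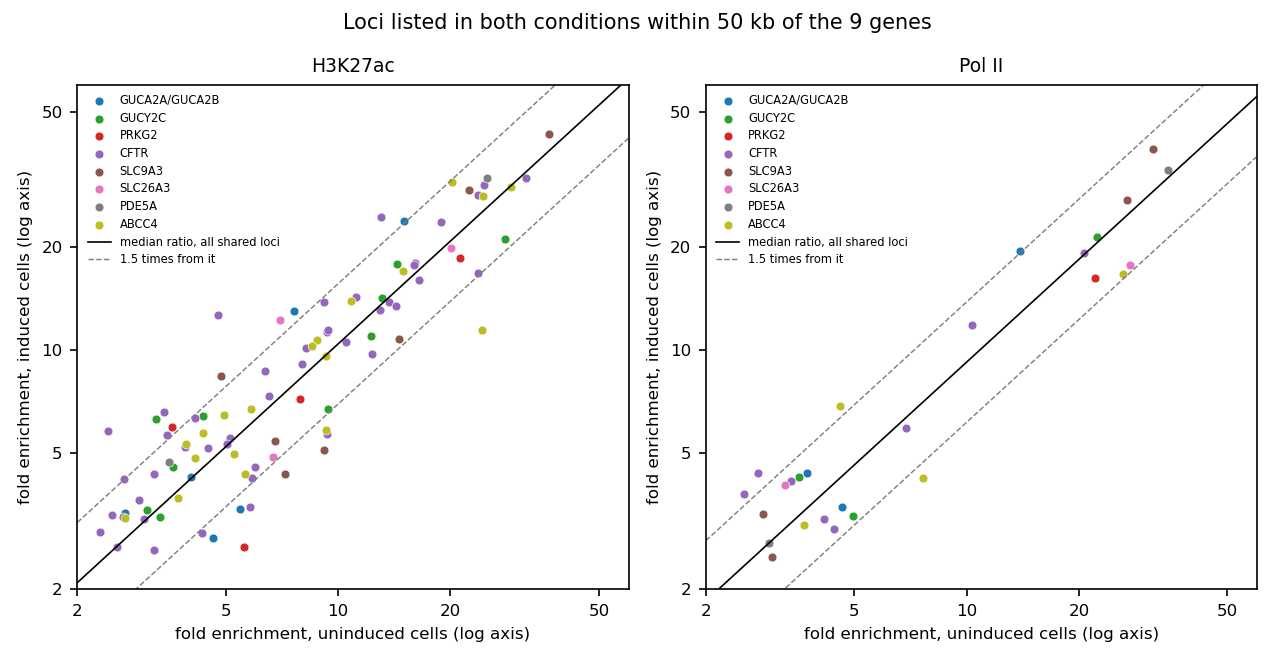
Fold enrichment of each locus listed in both conditions within 50 kb of the 9 genes, induced cells on the vertical axis and uninduced cells on the horizontal axis, both logarithmic, for H3K27ac (left, 96 loci) and Pol II (right, 27 loci). Points are loci coloured by gene. The solid line is the median ratio of all shared loci and the dashed lines lie 1.5 times from it. Most points lie between the dashed lines.

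Overlap between the marks can be counted from either side. Of the 129 H3K27ac loci 32 (24.8%) overlapped a Pol II locus, against 37.9% of all H3K27ac loci, and of the 43 Pol II loci 35 (81.4%) overlapped an H3K27ac locus, against 61.9% of all Pol II loci. Inside the 2 longest genes 7 of 49 H3K27ac loci of CFTR and 4 of 26 of ABCC4 overlapped Pol II.

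At the level of genes, 8 of the 9 had an H3K27ac region within the gene or 1 kb of it in both lists, against 75.3% of protein-coding genes in induced cells and 75.7% in uninduced cells. The exception was GUCA2B. Pol II was listed for 5 of 9 (GUCA2A, PRKG2, CFTR, SLC9A3 and ABCC4) in both lists, against backgrounds of 71.5% in induced cells and 73.1% in uninduced cells. No Pol II region of either list lay in or within 1 kb of GUCA2B, GUCY2C, SLC26A3 or PDE5A. Fewer genes were marked at the start site itself. Within 1 kb of it H3K27ac was listed for GUCA2A, CFTR, PDE5A and ABCC4, 4 of the 8 members with a listed start site, in both lists (of the 15812 genes with a listed start site, 66.3% in induced cells and 66.4% in uninduced cells). For Pol II these were GUCA2A, CFTR and ABCC4, 3 of 8 in both lists (65.1% of genes in induced cells and 66% in uninduced cells).

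**Figure D2:**
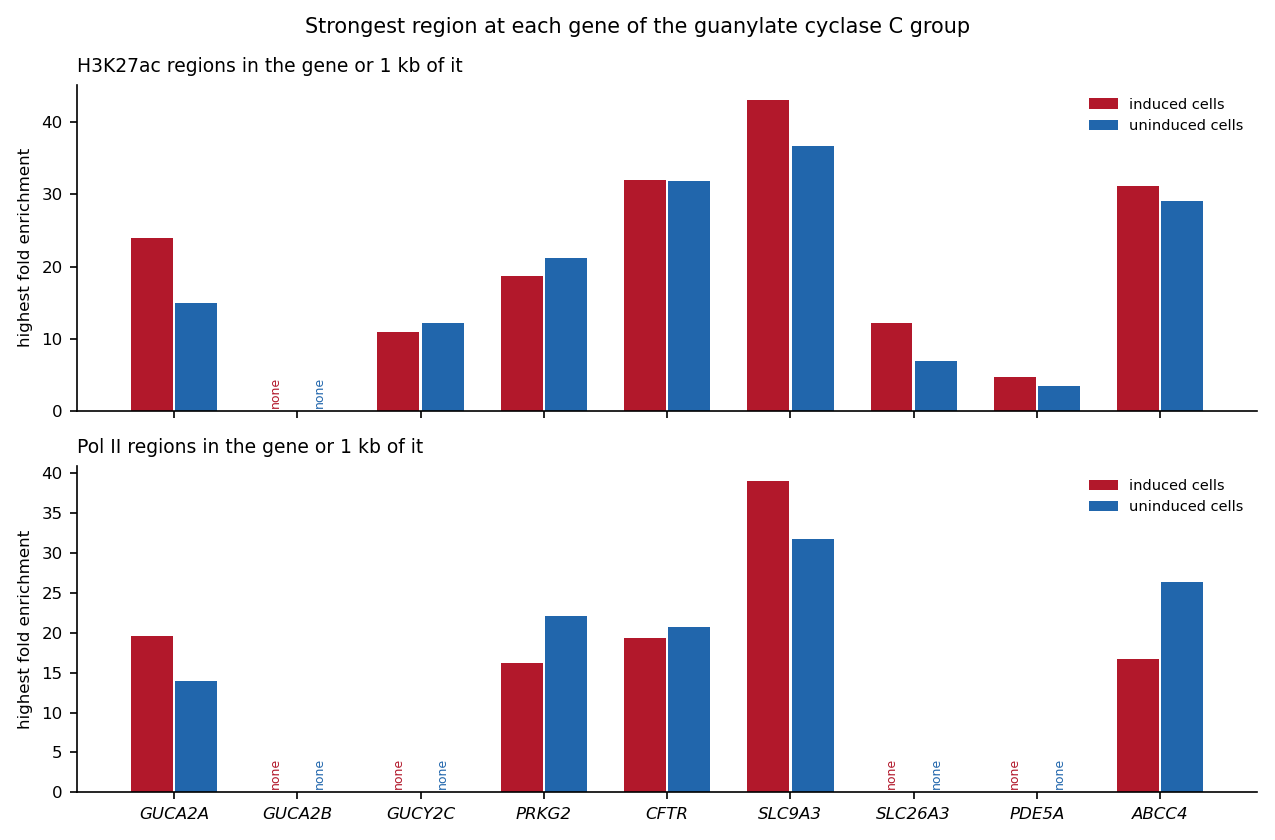
Highest fold enrichment of any region in the gene or 1 kb of it, for H3K27ac (top) and Pol II (bottom), in induced cells (left bar of each pair, red) and uninduced cells (right bar, blue). Each bar is a single value from 1 list, and "none" marks a gene with no region. GUCA2B has neither mark, and GUCY2C, SLC26A3 and PDE5A have H3K27ac without Pol II.

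The ligand genes lie side by side on chromosome 1. GUCA2B, which encodes uroguanylin, spans 42153410 to 42155820. GUCA2A, which encodes guanylin, spans 42162690 to 42164745, so that 6.87 kb separate them. The start site of HIVEP3, a zinc finger transcription factor gene, lies 117.5 kb below GUCA2B, and the 3′ end of FOXJ3, a forkhead factor gene, 11.8 kb above GUCA2A, since both are on the minus strand. No region of either mark in either list lay between 1 kb below GUCA2B and the lower end of GUCA2A.

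In the loci that overlap the start of GUCA2A both marks were higher in induced cells. The H3K27ac locus at 42163595 to 42166870 had a fold of 23.9 in induced cells and 15.0 in uninduced cells, and the Pol II locus at 42164528 to 42171643 had 19.6 in induced cells and 13.9 in uninduced cells. For both marks the ratio was 1.52 times the median ratio, only just past the limit of 1.5 times. On the log2 scale both differences were 0.61. The Pol II value drops to 0.49, within the limit of 1.5 times, when ratios are not set against the median. Among 9979 start sites with shared loci of both marks, 242 (2.43%) were higher for both and 97 (0.972%) lower for both.

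Pol II at GUCA2A lay mostly outside the gene. The gene is read from the minus strand, and the locus reached from its start site away from its body. The strongest summit lay 3.39 kb before the start site in induced cells, at 42168133. In uninduced cells it lay at 42167328, also before the start site, so the 2 Pol II summits are at different positions. The Pol II locus covered 7.44% of the gene in induced cells and 10.6% in uninduced cells. H3K27ac covered 41.4% in induced cells and 56.0% in uninduced cells. The immunoprecipitation does not show the strand on which polymerase moved.

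Across the wider neighbourhood, 200 kb to each side of the ligand genes, 27 H3K27ac loci were found. Of these 17 (63.0%, Wilson 95% interval 44.2 to 78.5) were listed in both conditions, 4 in induced cells alone and 6 in uninduced cells alone. The background shares of 74.6%, 11.8% and 13.6% given above apply here too, and the first lies inside the interval. The direction of the differences varied along the neighbourhood. On the HIVEP3 side, up to 1 kb below GUCA2B, 11 H3K27ac loci covered 19.5 kb in induced cells and 31.8 kb in uninduced cells. All 7 shared loci there had a lower fold in induced cells (44.3% of all shared H3K27ac loci had one). Of these, 3 were past the limit of 1.5 times (11.5% of all). The other 4 loci were listed in uninduced cells alone, most of them within 1 kb of a shared locus. With regions up to 1 kb apart joined, 17 of 19 H3K27ac loci of the whole neighbourhood (89.5%) were listed in both conditions, against 83.3% of all loci. With a −log10 q of at least 5 the share went the other way, 56.5% (13 of 23) against 78.9% of all loci.

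The largest differences of the neighbourhood were on the HIVEP3 side. Inside HIVEP3, the H3K27ac locus at 41964137 to 41971193 had a fold of 10.0 in induced cells (−log10 q 40.8) and 24.8 in uninduced cells (−log10 q 168.3). Above the HIVEP3 start site and 109.2 kb from the start site of GUCA2A, the locus at 42054138 to 42056817 had 5.90 in induced cells (−log10 q 19.0) and 17.7 in uninduced cells (−log10 q 107.3). Next to it a locus at 42052153 to 42053496 was listed in uninduced cells alone, with a fold of 4.38. Neither of the first 2 overlapped a Pol II locus. Closer to the ligand genes, 42133572 to 42134228 was the third locus past the limit, with 3.44 in induced cells and 5.45 in uninduced cells, and its neighbour at 42134333 to 42135080 (fold 5.81, −log10 q 17.7) was listed in uninduced cells alone. Weak loci of uninduced cells alone were H3K27ac at 41957331 to 41958662 (4.44) and Pol II at 42036864 to 42037171 (2.51) and 42059538 to 42059875 (2.48).

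HIVEP3 also carried strong marks that differed less. At its start site the H3K27ac locus at 42034865 to 42038590 had folds of 24.4 in induced cells and 26.2 in uninduced cells, and the Pol II locus there 21.4 in induced cells and 28.3 in uninduced cells. Further into the gene, the H3K27ac locus at 41976702 to 41984772 had 25.6 in induced cells and 27.1 in uninduced cells and that at 41952468 to 41957107 had 23.2 in induced cells and 30.8 in uninduced cells. Pol II further into HIVEP3 was weaker. At 41980787 to 41981846 it had 7.61 in induced cells and 8.33 in uninduced cells, while at 41954368 to 41954946 it had 4.24 in induced cells and 3.08 in uninduced cells and at 41955385 to 41956173 it had 4.57 in induced cells and 3.35 in uninduced cells, all within the limit. The HIVEP3 start site, the gene end nearest to the locus at 42054138, was thus within the limit for both marks.

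Between GUCA2A and FOXJ3 each mark had few loci. Of 4 H3K27ac loci from the lower end of GUCA2A to that of FOXJ3, 2 were listed in both conditions, 2 in induced cells alone and none in uninduced cells alone. Over all H3K27ac loci the shares were 74.6%, 11.8% and 13.6%. Both loci of induced cells alone merge with the shared locus at the GUCA2A start when regions up to 1 kb apart are joined. Beside the locus at the GUCA2A start, the other shared one, at 42172966 to 42174086, had 4.25 in induced cells and 4.03 in uninduced cells. Of the 4 Pol II loci 3 were shared, and that at 42174389 to 42174987 was listed in induced cells alone (fold 8.00, −log10 q 22.3). Of all Pol II loci 61.9% were shared and 9.1% were listed in induced cells alone. The same joining merges the locus at 42174389 with the shared one at 42173000. The shared one at 42171845 to 42172894 had 3.47 in induced cells and 4.63 in uninduced cells and that at 42173000 to 42173705 had 4.36 in induced cells and 3.74 in uninduced cells, both within the limit. Here Pol II covered 8.20 kb in induced cells and 8.87 kb in uninduced cells.

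Inside FOXJ3, more than 1 kb from its start site, lay 11 H3K27ac loci. Of these 7 were shared, 2 listed in induced cells alone and 2 in uninduced cells alone (74.6%, 11.8% and 13.6% of all loci). None of the 11 met Pol II, while 37.9% of all H3K27ac loci did. Of the 7 shared loci 2 were higher and 2 lower, against 9.07% and 11.5% of all shared loci. Higher in induced cells were the locus at 42214167 to 42215487, with 13.04 in induced cells and 7.60 in uninduced cells, and that at 42221354 to 42221914, with 5.74 in induced cells and 3.34 in uninduced cells. The second is within the limit (0.17 on the log2 scale) when regions up to 1 kb apart are joined. Lower in induced cells were 42205939 to 42207196, with 2.82 in induced cells and 4.62 in uninduced cells, and 42266381 to 42267421, with 5.96 in induced cells and 8.79 in uninduced cells. The second of these is within the limit (−0.56 on the log2 scale) when ratios are not set against the median. The locus at 42222070 to 42223516 differed less, with 7.15 in induced cells and 6.07 in uninduced cells, as did that at 42318819 to 42322054, with 11.6 in induced cells and 16.2 in uninduced cells. A short locus at 42314164 to 42314774 was listed in induced cells alone (fold 4.401) and its neighbour at 42314810 to 42315383 in uninduced cells alone (fold 4.38).

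At the FOXJ3 start site the marks were strong in both conditions. H3K27ac had folds of 29.997 in induced cells and 34.4 in uninduced cells, and Pol II had 23.7 in induced cells and 24.2 in uninduced cells. A smaller Pol II locus beside it, at 42339070 to 42341612, had 3.28 in induced cells and 6.13 in uninduced cells, but this turns to 0.10 in favour of induced cells on the log2 scale when regions up to 1 kb apart are joined. In this neighbourhood, then, every H3K27ac locus called higher in induced cells lay from GUCA2A into FOXJ3, and the 2 with the smallest ratio of induced to uninduced fold lay in and beside HIVEP3.

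**Figure D3:**
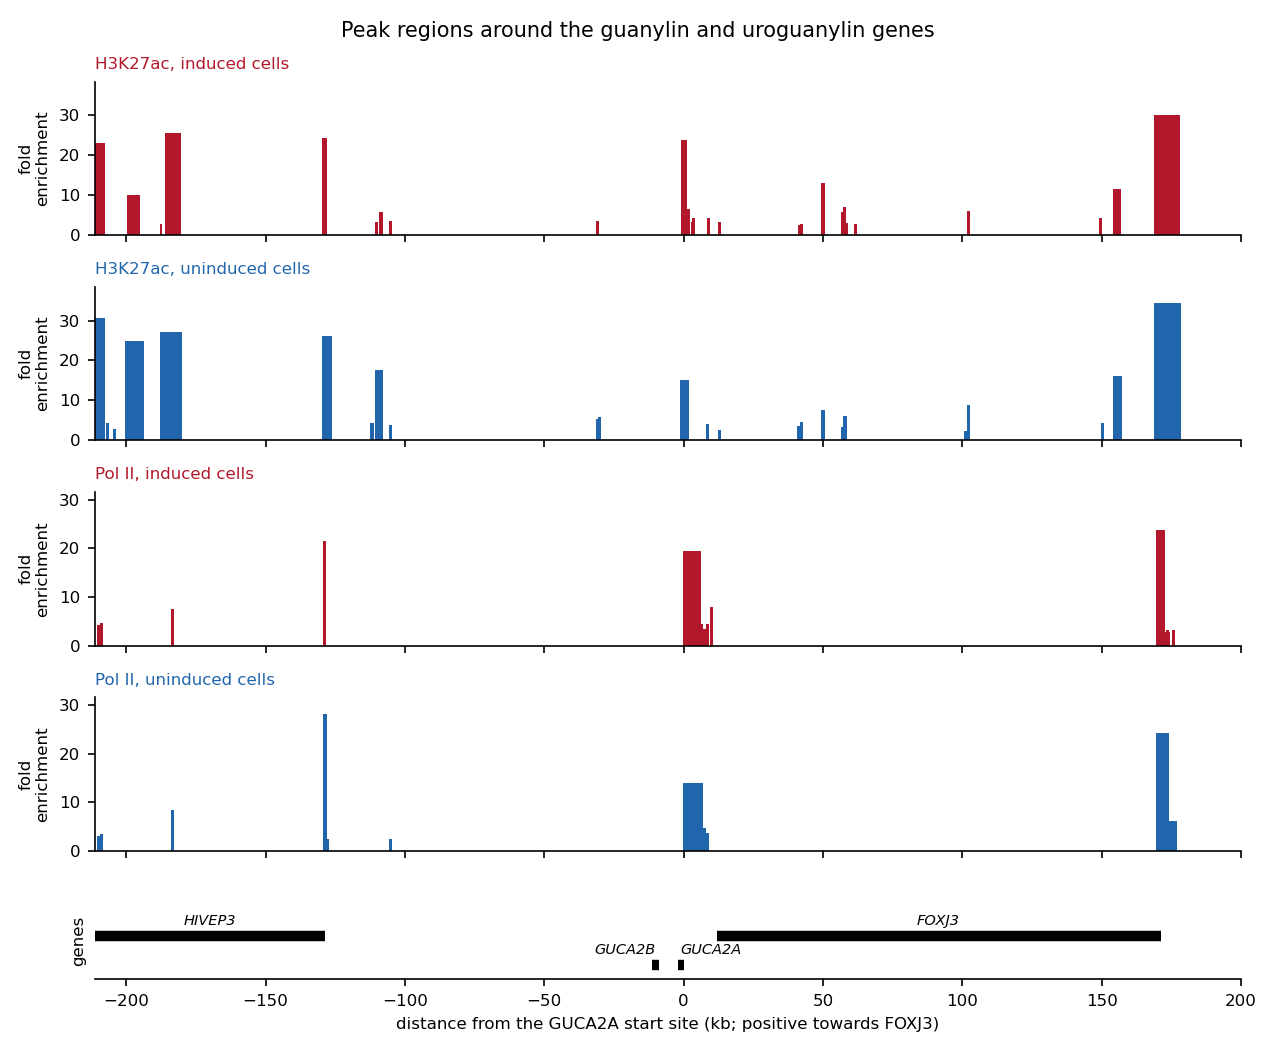
Regions of the 4 lists within 200 kb of the ligand genes, drawn to scale by distance from the GUCA2A start site in kb, with bar height the fold enrichment. Rows from the top are H3K27ac in induced and in uninduced cells and Pol II in induced and in uninduced cells, with the genes below. The bars near −197 and −109 kb are shorter in induced cells, the bars at 0 are taller, and no bar lies over GUCA2B.

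GUCY2C encodes the receptor, guanylate cyclase C, and spans 84.0 kb of chromosome 12, from 14612632 to 14696599. In both conditions it carried H3K27ac without Pol II. The locus at 14628101 to 14631093, inside the gene, had a fold of 11.0 in induced cells (−log10 q 45.7) and 12.2 in uninduced cells (−log10 q 70.2). A second, weak locus in the gene at 14619439 to 14619814 was listed in uninduced cells alone, with a fold of 2.83. H3K27ac covered 3.23% of the gene in induced cells and 3.96% in uninduced cells, beside medians of 3.77% in induced cells and 3.94% in uninduced cells over the 5418 genes of 0.5 to 2 times its length.

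More H3K27ac lay above the upper end of GUCY2C than inside the gene. Nearest to the gene, 4.23 kb away, the locus at 14700826 to 14702980 had 6.71 in induced cells and 9.42 in uninduced cells. The strongest of the group were the locus at 14709010 to 14712397, with 14.3 in induced cells and 13.1 in uninduced cells, and that at 14714505 to 14717206, with 17.9 in induced cells and 14.4 in uninduced cells. Both of these overlapped weak Pol II loci. At 14710905 to 14711357 Pol II had 4.25 in induced cells and 3.56 in uninduced cells, and at 14715703 to 14717113 it had 3.26 in induced cells and 4.95 in uninduced cells. The group lies within the annotated antisense transcript GUCY2C-AS1 (14665636 to 14736219), beyond GUCY2C itself.

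Of 15 H3K27ac loci around GUCY2C, 10 were shared, 4 listed in induced cells alone and 1 in uninduced cells alone. Over all H3K27ac loci the shares were 74.6%, 11.8% and 13.6%. A single locus of the 10 shared ones passed the limit, higher in induced cells. Of all shared loci 9.07% were higher and 11.5% lower. At 14706286 to 14707078 the fold was 6.29 in induced cells (−log10 q 16.3) and 3.25 in uninduced cells (−log10 q 6.05). The 4 loci listed in induced cells alone, which start at 14575431, 14575840, 14590918 and 14722510, had folds from 2.43 to 3.55 and a −log10 q of at most 5.06. At the far edge of the window the start of PLBD1, a phospholipase B-like gene, and PLBD1-AS1 had H3K27ac folds of 21.2 in induced cells and 28.0 in uninduced cells and Pol II folds of 21.5 in induced cells and 22.4 in uninduced cells.

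**Figure D4:**
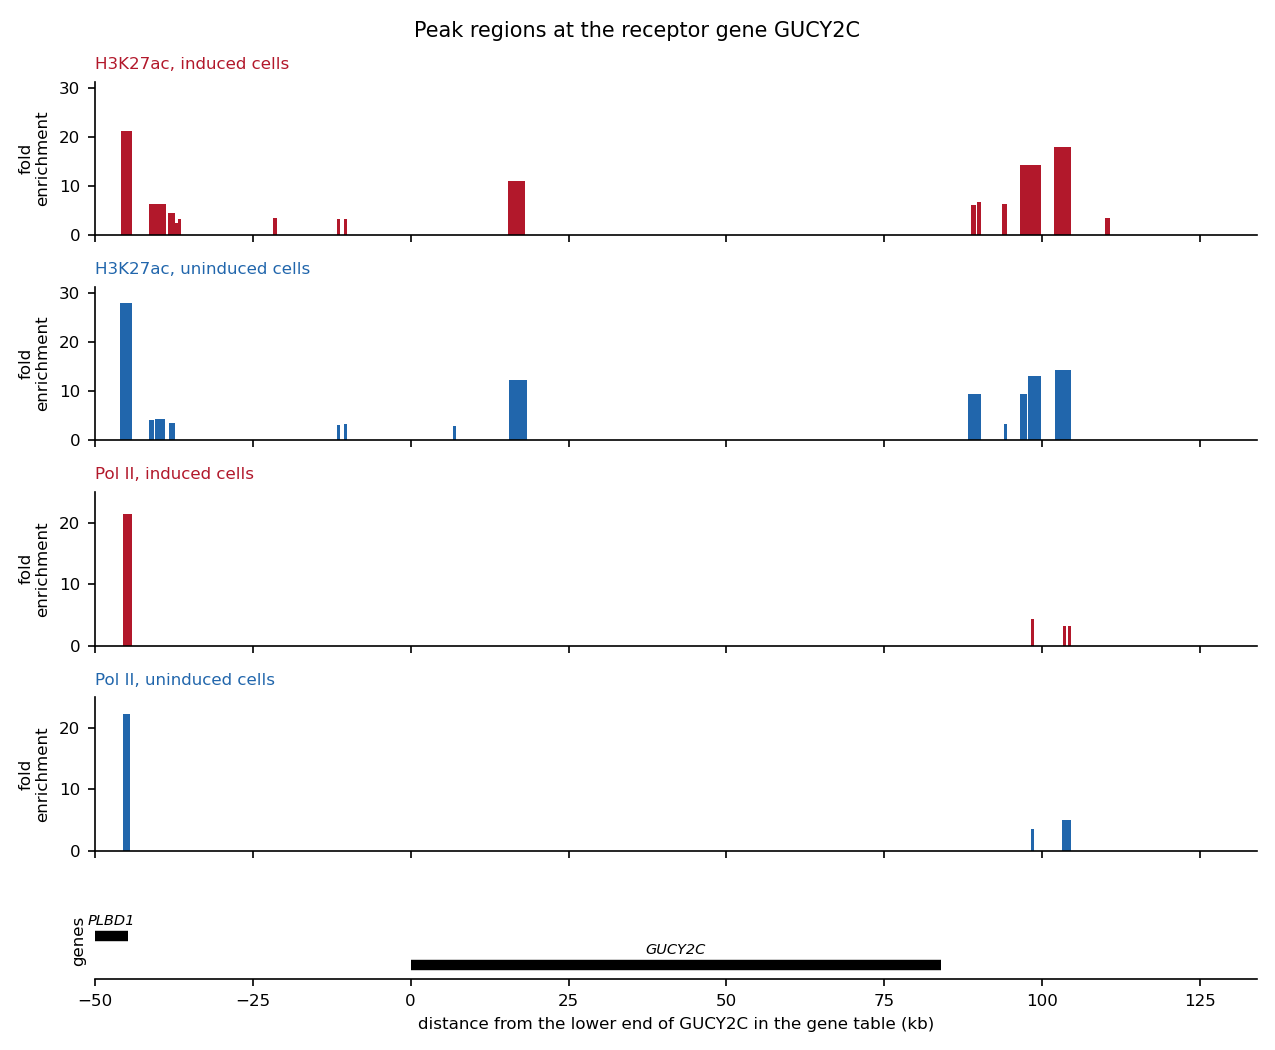
Regions of the 4 lists within 50 kb of GUCY2C, by distance in kb from the lower end of the gene, with bar height the fold enrichment and rows as labelled. The gene holds an H3K27ac bar near 17 kb in both conditions and no Pol II bar. Taller H3K27ac bars lie beyond its upper end, and the tallest lie below its lower end, at the start of PLBD1.

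PRKG2 encodes the membrane-bound cGMP-dependent protein kinase that acts on CFTR and SLC9A3. It spans 81087370 to 81217836 on chromosome 4, on the minus strand, with a start site at 81215222. All 4 H3K27ac loci of its window lay inside the gene, at least 50 kb from the start site, and all were listed in both conditions. The strongest, at 81153079 to 81154871, had a fold of 18.7 in induced cells and 21.2 in uninduced cells. The only Pol II locus of the window lay on it, with 16.2 in induced cells (−log10 q 79.5) and 22.1 in uninduced cells (−log10 q 130.4). Both lie below PRKG2-AS1, an annotated antisense transcript at 81164940 to 81193395.

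Of the other 3 PRKG2 loci, which lie close together, 1 was lower and 1 higher in induced cells. At 81162114 to 81163683 the H3K27ac fold was 2.65 in induced cells (−log10 q 2.24) and 5.59 in uninduced cells (−log10 q 25.2). At 81164951 to 81165642 it was 5.95 in induced cells and 3.58 in uninduced cells. Between them, the locus at 81163984 to 81164805 had 7.20 in induced cells and 7.90 in uninduced cells. When regions up to 1 kb apart are joined the 3 become a single locus with a difference of −0.20 on the log2 scale, within the limit.

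CFTR encodes the chloride and bicarbonate channel through which cGMP drives secretion. It spans 188.6 kb of chromosome 7, from 117480025 to 117668665, on the plus strand, and had the most H3K27ac loci of the 9 genes. Its window held 60 H3K27ac loci, 45 of them listed in both conditions, 10 in induced cells alone and 5 in uninduced cells alone (74.6%, 11.8% and 13.6% of all loci). H3K27ac covered 30.2% of the gene in induced cells and 29.7% in uninduced cells. Among the 3004 genes of 0.5 to 2 times its length the median was 2.91% in induced cells and 3.22% in uninduced cells, and 58 genes in induced cells and 65 in uninduced cells were covered as much.

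At the CFTR start site both marks were strong and nearly equal between conditions. The H3K27ac locus at 117477347 to 117481425 had a fold of 31.9 in induced cells and 31.9 in uninduced cells. Pol II at 117477940 to 117481346 had 19.3 in induced cells and 20.7 in uninduced cells. With gaps of up to 10 kb bridged, the H3K27ac loci of the gene formed 5 stretches. The first reached from 4.50 kb before the start site to 30.7 kb after it, and the others ran from 49.8 to 59.3 kb, from 85.6 to 112.6 kb, from 127.3 to 147.9 kb and from 164.6 kb to 209.0 kb, past the end of the gene.

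Few loci of any stretch passed the limit, too few to tell the stretches apart. In the last of them, 14 of 17 loci were shared and 3 of these were higher in induced cells, none lower. Over all shared H3K27ac loci 9.07% were higher and 11.5% lower. At 117649868 to 117651358 H3K27ac had 12.7 in induced cells (−log10 q 58.7) and 4.78 in uninduced cells (−log10 q 20.2), the largest ratio at any of the 96 shared loci. At 117685798 to 117689047, beyond the end of the gene, it had 24.6 in induced cells and 13.04 in uninduced cells. The third was 117648174 to 117648901, with 4.21 in induced cells and 2.66 in uninduced cells.

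Nearer the start site the differences ran both ways. Higher in induced cells were 117506910 to 117508257, with 6.59 in induced cells and 3.41 in uninduced cells, 117571012 to 117571573, with 5.79 in induced cells and 2.41 in uninduced cells, and 117573198 to 117574099, with 5.64 in induced cells and 3.47 in uninduced cells. Lower in induced cells were 117529789 to 117530594, with 3.48 in induced cells and 5.79 in uninduced cells, 117537073 to 117539350, with 5.71 in induced cells and 9.34 in uninduced cells, and 117590438 to 117591017, with 2.91 in induced cells and 4.32 in uninduced cells. None of these 9 CFTR loci passes the limit when regions up to 1 kb apart are joined, and the last turns to 0.26 in favour of induced cells on the log2 scale.

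Strong loci of CFTR that stayed within the limit lay inside the gene and past its end. At 117580522 to 117584135 H3K27ac had 23.7 in induced cells and 18.9 in uninduced cells, and at 117613921 to 117618929 it had 16.8 in induced cells and 23.7 in uninduced cells. Past the end of the gene, 117679814 to 117685717 had 30.5 in induced cells and 24.6 in uninduced cells and 117669811 to 117675274 had 28.5 in induced cells and 23.7 in uninduced cells. Of the loci of a single condition, the strongest was 117627440 to 117627886, in uninduced cells alone (fold 4.30, −log10 q 11.1), followed by 117481704 to 117482043, also in uninduced cells alone (3.73), and by 117654147 to 117655072 (3.82) and 117483494 to 117483852 (3.75) in induced cells alone.

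Pol II at CFTR was strongest at the start site. Its window held 15 loci, all on H3K27ac, with 8 in both conditions, 3 in induced cells alone and 4 in uninduced cells alone (61.9%, 9.1% and 29.1% of all Pol II loci). It covered 0.997% of the gene in induced cells and 1.93% in uninduced cells, beside medians of 0.698% in induced cells and 0.851% in uninduced cells over genes of like length. Inside the gene 2 weak loci were higher in induced cells, 117494809 to 117495511 with 4.38 in induced cells and 2.76 in uninduced cells, and 117535191 to 117535631 with 3.80 in induced cells and 2.53 in uninduced cells. The strongest beyond the start site, at 117672677 to 117674357, lies past the end of the gene and had 11.8 in induced cells and 10.4 in uninduced cells. Of the loci of a single condition, the strongest was 117476713 to 117477683 in uninduced cells (fold 3.89, −log10 q 9.78), followed by 117675516 to 117675838 in induced cells (4.55, −log10 q 7.65) and by 117619707 to 117620055 (3.45) and 117681973 to 117682698 (2.32) in uninduced cells.

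**Figure D5:**
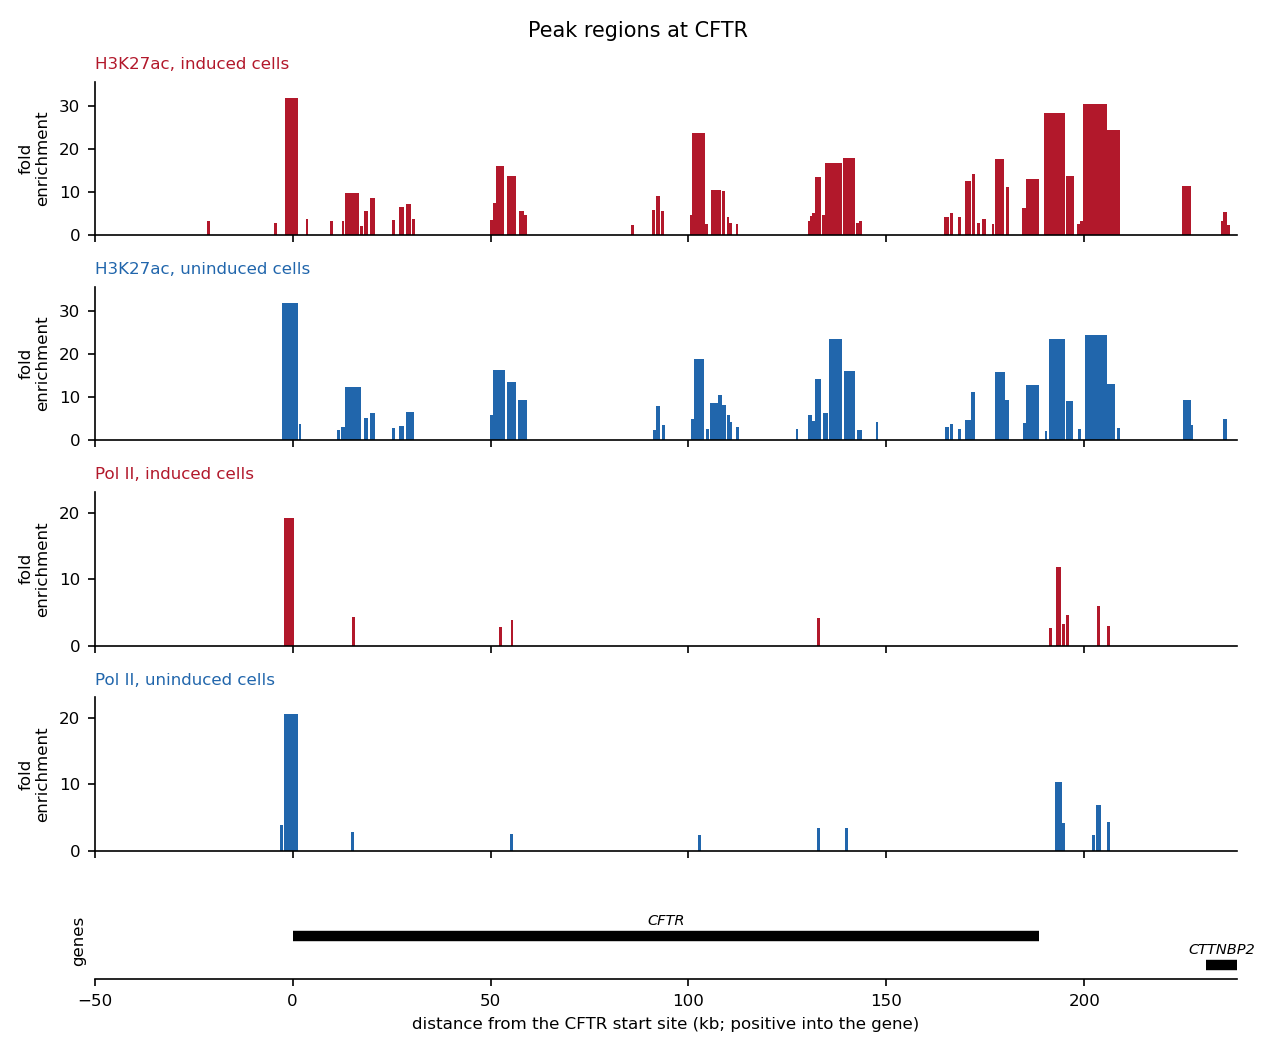
Regions of the 4 lists within 50 kb of CFTR, by distance in kb from its start site, with bar height the fold enrichment and rows as labelled. H3K27ac bars recur through the gene in both conditions, and the bars near 171 and 206 kb are taller in induced cells.

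SLC9A3 encodes the sodium/hydrogen exchanger NHE3, which takes up sodium from the lumen. It lies on the minus strand of chromosome 5, from 470456 to 524449. The highest H3K27ac fold in any of the 9 genes lay at the 3′ end of SLC9A3. The H3K27ac locus at 471452 to 475137 had 43.1 in induced cells and 36.7 in uninduced cells, and the Pol II locus at 467433 to 481901 had 39.0 in induced cells and 31.7 in uninduced cells. That Pol II locus, 14.5 kb long, overlaps the annotated transcripts SLC9A3-OT1 and SLC9A3-AS1, and begins just beyond the end of EXOC3, a gene of the exocyst complex. Which of these genes the polymerase belonged to cannot be told apart without strand.

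No region of either mark lay within 1 kb of the SLC9A3 start site. The nearest locus, 5.21 kb inside the gene at 518242 to 519793, had an H3K27ac fold of 8.42 in induced cells (−log10 q 26.2) and 4.85 in uninduced cells (−log10 q 10.6). Pol II at 518561 to 518964, within it, was listed in induced cells alone (fold 5.22, −log10 q 10.5). Both marks were thus higher, or listed alone, in induced cells at this place.

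Other loci near SLC9A3 were lower in induced cells. At 479965 to 481484 H3K27ac had 5.11 in induced cells and 9.19 in uninduced cells, and at 445645 to 447269, within EXOC3, it had 4.33 in induced cells and 7.20 in uninduced cells. The start of EXOC3 was within the limit, with H3K27ac folds of 29.4 in induced cells and 22.4 in uninduced cells and Pol II folds of 27.6 in induced cells and 26.98 in uninduced cells. A weak H3K27ac locus at 436041 to 436406 was listed in uninduced cells alone (fold 2.84).

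SLC26A3 encodes DRA, the chloride/bicarbonate exchanger of the colonic surface. It lies on the minus strand of chromosome 7, from 107765469 to 107803223. The only H3K27ac locus in the gene, 3.65 kb inside it at 107799108 to 107800508, was higher in induced cells, with 12.2 in induced cells (−log10 q 47.1) and 7.004 in uninduced cells (−log10 q 25.2). There was no Pol II in the gene in either list. Before the start site, 40.0 kb away, the H3K27ac locus at 107842746 to 107844000 had 4.89 in induced cells and 6.70 in uninduced cells, and Pol II on it at 107843046 to 107843582 was listed in uninduced cells alone (fold 5.85, −log10 q 17.2). The difference in H3K27ac at this second place is within the limit.

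The start of CBLL1, a ubiquitin ligase gene below SLC26A3, held the strongest marks of that window. H3K27ac there had 19.9 in induced cells and 20.05 in uninduced cells, and Pol II had 17.8 in induced cells and 27.4 in uninduced cells. That Pol II difference is within the limit (−0.51 on the log2 scale) and past it when ratios are not set against the median (−0.62). Just beyond the end of SLC26A3 a weak Pol II locus at 107763938 to 107764340 was shared, with 4.04 in induced cells and 3.26 in uninduced cells, and its neighbour at 107763499 to 107763765 was listed in uninduced cells alone (2.39).

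PDE5A encodes the phosphodiesterase that breaks down cGMP. It lies on the minus strand of chromosome 4, from 119494403 to 119628804. A weak H3K27ac locus at its start site, 119628473 to 119629051, had a fold of 4.71 in induced cells and 3.51 in uninduced cells, the weakest best locus of the 8 marked genes, and no Pol II was listed in the gene. The strong locus of its window was 38.0 kb beyond its other end, over the adjoining ends of the pseudogenes GTF2IP12 and SEPTIN7P14. H3K27ac there had 32.1 in induced cells and 25.0 in uninduced cells, and Pol II had 33.8 in induced cells and 34.6 in uninduced cells. A weak Pol II locus at 119485210 to 119485876 was listed in induced cells alone (2.53).

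ABCC4 encodes MRP4, a transporter that carries cyclic nucleotides out of the cell. It spans 95019835 to 95301451 on chromosome 13, on the minus strand. At its start site H3K27ac at 95296313 to 95302467 had 28.3 in induced cells and 24.4 in uninduced cells. Pol II there, at 95300483 to 95302166, went the other way, with 16.8 in induced cells (−log10 q 100.4) and 26.3 in uninduced cells (−log10 q 204.3). The Pol II difference is within the limit relative to the median ratio (−0.54 on the log2 scale) and past it without that step (−0.65). The annotated transcript LOC102724149 overlaps this start.

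H3K27ac ran along ABCC4 much as along CFTR, though less densely. The window held 28 loci, 19 in both conditions, 7 in induced cells alone and 2 in uninduced cells alone. Over all H3K27ac loci the shares were 74.6%, 11.8% and 13.6%. H3K27ac covered 16.3% of the gene in induced cells and 14.6% in uninduced cells. Over the 1956 genes of like length the medians were 2.52% in induced cells and 2.70% in uninduced cells. The strongest inside the gene lay 171 to 215 kb from the start site, among 15 loci. At 95098684 to 95104202 H3K27ac had 30.1 in induced cells and 29.1 in uninduced cells, and at 95119825 to 95126254 it had 31.2 in induced cells and 20.2 in uninduced cells. Its ratio of 1.54 is within the limit relative to the median and past it without that step.

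The loci of ABCC4 past the limit were lower in induced cells for H3K27ac and went both ways for Pol II. The H3K27ac locus at 95312695 to 95318336, 13.6 kb before the start site, had 11.4 in induced cells (−log10 q 64.1) and 24.3 in uninduced cells (−log10 q 169.3), the smallest ratio at any of the 96 shared loci. In the gene, 95110625 to 95113091 had 5.86 in induced cells and 9.30 in uninduced cells. Pol II at 95100633 to 95101480 had 4.24 in induced cells and 7.64 in uninduced cells, and at 95115469 to 95115923 it had 6.88 in induced cells and 4.58 in uninduced cells.

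Loci of a single condition at ABCC4 were weak. In uninduced cells alone these were the H3K27ac loci at 95344327 to 95345058 (fold 5.69, −log10 q 15.3) and 95049087 to 95050770 (5.38, −log10 q 13.7). In induced cells alone the strongest were 95180218 to 95180815 (4.36) and 95180895 to 95182071 (4.24). For Pol II, 95314660 to 95315043, within the locus before the start site that was lower for H3K27ac, was listed in uninduced cells alone (4.06, −log10 q 7.05), as were 95099458 to 95099831 (3.36) and 95307704 to 95308067 (2.82), while 95121643 to 95122319 was listed in induced cells alone (3.38).

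Other genes of cGMP and intestinal fluid transport were described by a list of 40, all matched to the gene table. H3K27ac was listed in the gene or 1 kb of it for 35 genes in induced cells and 36 in uninduced cells, and Pol II for 28 in induced cells and 31 in uninduced cells. In induced cells these are 87.5% for H3K27ac and 70% for Pol II, against 75.3% and 71.5% of all protein-coding genes. In uninduced cells they are 90% for H3K27ac and 77.5% for Pol II, against 75.7% and 73.1%. No gene was listed in induced cells alone for either mark. NPPC, which encodes a natriuretic peptide, had H3K27ac in uninduced cells alone (−log10 q 2.81). Pol II was listed in uninduced cells alone for GUCY1A1, a subunit of soluble guanylate cyclase (−log10 q 7.54), for PDE3A, a phosphodiesterase (9.76), and for PDZK1, a scaffold of brush border transporters (3.21).

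Among the strongest Pol II of that list were genes that anchor or accompany the transporters above. NHERF1, a scaffold that binds CFTR and SLC9A3, had a −log10 q of 376.2 in induced cells and 435.2 in uninduced cells. Its partner EZR, which links membrane proteins to actin, had 300.3 in induced cells and 374.6 in uninduced cells. For SLC12A2, which loads chloride into secreting cells, the values were 260.6 in induced cells and 342.2 in uninduced cells, for the potassium channel gene KCNQ1 214.4 in induced cells and 322.5 in uninduced cells, and for the sulfate transporter gene SLC26A2 228.3 in induced cells and 316.0 in uninduced cells. These 5 genes had a lower −log10 q in induced cells, but not all a lower fold: NHERF1 had a fold of 52.6 in induced cells and 43.5 in uninduced cells. Over the whole Pol II list the median −log10 q was 8.13 in induced cells and 8.998 in uninduced cells.

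Genes most like GUCY2C and GUCA2A were found by Euclidean distance over 4 values, log2 of 1 plus the highest −log10 q in the gene or 1 kb of it in each of the 4 lists. For GUCY2C these were FYB2, C6orf58, SLC24A4, ENPP2 and CCDC178, with distances from 0.043 to 0.14. FYB2, the nearest, had an H3K27ac −log10 q of 44.7 in induced cells and 68.8 in uninduced cells, and like GUCY2C no Pol II. For GUCA2A they were TP53I11, PLCE1, NFATC2, SOCS3 and CFAP157, at 0.21 to 0.53. TP53I11 had H3K27ac at 115.4 in induced cells and 74.6 in uninduced cells and Pol II at 86.0 in induced cells and 67.9 in uninduced cells.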

How the data were processed

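Chromatin immunoprecipitation and sequencing was analysed from DLD1 (DNTCF) cells, as 1 peak list for each of 2 antibodies and 2 conditions, out of 34 samples in the series. Not analysed here were 24 RNA-seq samples and the tracks of signal. Single reads of 75 bp were sequenced, per the labels' protocols. The submitters' processing notes name BWA 0.7.17-r1188, SAMtools 1.10 and MACS2 2.1.1.20160309 and the builds hg19 and hg38, without role or order. The highest position on chromosome 17 is 83228308, which GRCh38 holds and the earlier build does not. The authors' deposited lists give a fold enrichment, a −log10 p and a −log10 q for each summit. Pooling of the 2 samples before calling is not stated.

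Summits of 1 region were collapsed to their highest fold and −log10 q. Chromosomes 1 to 22 and X were kept, without at most 0.603% of summits. The lists then held 79987 H3K27ac regions in induced cells and 78005 in uninduced cells, and 50665 Pol II regions in induced cells and 57247 in uninduced cells. Induced and uninduced regions of an antibody that shared at least 1 bp formed a locus (Python 3.11.15, numpy 2.4.6, checked against bedtools 2.31.1 and tested on simulated data). Start sites and promoter sequences came from RefSeq tables of GRCh38.p14, for 15812 genes and 8 of the 9 members. Where a start site was not in these tables, both gene ends stood in for it. Wilson intervals cover counting error only.

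The genes, the list of 40 and the loci named were chosen with earlier results of these data known. The loci named were the strongest of each member and mark, up to 4 per mark listed in 1 condition alone, those past the limit of 1.5 times and, around the ligand genes, those with a −log10 q of at least 10. A few strong loci within the limit and the loci beside a gene's start were added after their values were seen. Alternatives joined regions up to 1 kb apart, raised the −log10 q, kept the 40000 strongest regions, changed windows, limit and centring, or used −log10 q for fold. Genes of like length were those of 0.5 to 2 times the gene's length. The set without CFTR was added after the data were seen. The lists hold no per-sample values, so 0 such columns were unmatched. Of the genes the rules name, 2 are not reported here.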

Additional observations from a re-analysis of the deposited data

How the results depend on the processing

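Over the members' shares and counts, 46 of 70 alternatives stayed within the spread or 1.5 times of the value reported, and 24 did not; the cause was not tested. Joining regions up to 1 kb apart gave 5 higher and 6 lower H3K27ac loci of 58, against 8.74% and 11.2% of all shared loci. In the ligand neighbourhood 89.5% of H3K27ac loci were then shared (83.3% of all loci). For Pol II, 60.6% were shared among the 40000 strongest, against 70.1% of all. With a −log10 q of at least 5, 6 of 79 shared H3K27ac loci were lower (10.8% of all shared loci). Of 17 shared Pol II loci 2 were higher (7.08% of all). At that setting 56.5% of H3K27ac loci in the ligand neighbourhood (13 of 23) were shared, against 78.9% of all. With the 40000 strongest regions, 84.7% of the members' H3K27ac loci and 90.9% of those in the ligand neighbourhood were shared (83.7% of all). Of the members' 50 shared H3K27ac loci 5 were higher and 3 lower, against 7.2% and 8.78% of all. Of their 20 shared Pol II loci 2 were higher, against 6.97%. Windows of 10 kb gave 6 lower H3K27ac loci of 73 (11.5% of all shared loci). A limit of 2 times left 2 higher and 2 lower H3K27ac loci of 96, against 1.41% and 3.09% of all shared loci. For Pol II it left 0 higher and 0 lower loci of 27, against 0.774% and 1.43%. Without centring 4 of 27 Pol II loci were lower (12.5% of all shared Pol II loci). With −log10 q in place of fold, 25 of the 96 H3K27ac loci were higher (15.95% of all shared loci) and 6 of 27 Pol II loci lower (17.2%). Counting regions within 1 kb of the start left 4 members in induced cells and 4 in uninduced cells for H3K27ac and 3 in induced cells and 3 in uninduced cells for Pol II. Without CFTR, 6 of 51 H3K27ac and 2 of 19 Pol II loci were higher (9.07% and 7.4% of all shared loci). Of 56 named loci, joining regions reversed 3: PRKG2 at 81164951 (−0.20), CFTR at 117590438 (0.26) and Pol II beside FOXJ3 at 42339070 (0.10 on the log2 scale); 10 others came within the limit, 8 of them at CFTR. Of the 56 named loci only 46 were left at a −log10 q of at least 5, and 38 among the 40000 strongest regions. All of those left kept direction and side of the limit. These settings drop regions but leave the fold of each kept region as it was. Such agreement was thus largely fixed in advance. No paired analysis was possible because 1 list serves both samples of a group, which also leaves no replicate to omit. A locus absent from 1 list may lie just under its threshold, since depth is known only as a range.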
